A study of Homo sapiens with 12 samples.

Results

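THZ1, a covalent inhibitor of the transcription kinase CDK7, was applied at 200 nM for 6 h to 2 human esophageal squamous cell carcinoma lines, KYSE510 and TE7, and the libraries were set against DMSO vehicle libraries of the same lines. These are 4 of the 12 poly(A) RNA libraries of the series, 1 per line and condition. The other 8 are the same lines under 50 nM THZ1 for 2, 4, 6 and 12 h; they lent their spread to the tests, and the 50 nM 6 h pair was also compared directly. The titles of the DMSO libraries give 0 h while their time field gives 12 h, so their time in vehicle is uncertain. Each line is 1 established culture, and nothing in the labels says that libraries came from separate cultures, so p-values measure the spread between these libraries.

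CDK7 is the kinase of the general transcription factor TFIIH. It phosphorylates the C-terminal repeats of the largest subunit of RNA polymerase II near the start of a gene, and it also activates the cell cycle kinases. THZ1 is known to hit CDK12 and CDK13 as well, 2 kinases that act on elongating polymerase. Squamous carcinomas depend on lineage factors such as p63, whose genes lie beside large enhancers, and the study asked about such enhancer-linked oncogenes. Because FPKM (fragment counts scaled by transcript length and library total) are shares of a library, an equal loss of every RNA would not show in them, and fewer cells and less RNA per cell cannot be told apart.

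The libraries were not alike in everything but treatment, which bears on every result. In KYSE510, 91 genes (72 of them protein-coding) had at least 8 FPKM under 200 nM THZ1 and under 0.5 FPKM in DMSO, and 163 (149 protein-coding) showed the reverse. UCHL1, a neuronal deubiquitinase, had 0.317 FPKM in KYSE510 DMSO, 335 to 485 FPKM in the 4 KYSE510 libraries at 50 nM and 509 FPKM under 200 nM THZ1. TUSC3 had 1.07 FPKM in KYSE510 DMSO, 0.101 to 0.267 FPKM at 50 nM and 81.8 FPKM under 200 nM. PRSS21, a protease, had 0.0211 FPKM in KYSE510 DMSO, 83.3 to 87.9 FPKM at 50 nM and a listed 0 at 200 nM, and the antigen CTAG2 had 0.0723 FPKM, 97.2 to 160 FPKM and a listed 0. Whether the KYSE510 libraries come from 1 stock, and whether each carries its right label, was not tested. Across protein-coding genes the KYSE510 200 nM library correlated less with its DMSO library (Pearson's r = 0.797) than with the TE7 200 nM library (r = 0.843), whereas TE7 200 nM had r = 0.891 with TE7 DMSO. These are correlations across genes, which are not independent, and are given as a description. In TE7, mitochondrially encoded genes held 8.88% of FPKM in DMSO, 12.9% to 27.3% at 50 nM and 0.0434% under 200 nM, and 67 nuclear genes (6 protein-coding) had at least 8 FPKM in DMSO and every 50 nM library but under 0.5 FPKM at 200 nM. Of those, 42 were also under 0.5 FPKM in all 6 KYSE510 libraries, none of them protein-coding. Another 26 genes (2 protein-coding) showed the reverse in TE7, under 0.5 FPKM in DMSO and every 50 nM library but at least 8 FPKM at 200 nM, among them copies of RNU6, a small RNA without a poly(A) tail. Differences of this kind and the treatment cannot be told apart. For that reason mitochondrial genes were left out, and main counts are also given, further below, for a fit without both KYSE510 libraries. The tests averaged the change over both lines and asked nothing of each line, so a gene could pass mostly on 1 line. Only the ranking of the steepest rises and falls required the same direction in both lines. Summed FPKM of nuclear genes were 383427 and 459001 under THZ1 in KYSE510 and TE7, against 489329 and 551225 in DMSO, and 11975 and 12108 genes reached 1 FPKM under THZ1, against 12962 and 13967. The median gap between the authors' upper confidence bound and the value was 9.70% and 10.6% under THZ1, against 7.31% and 7.32% in DMSO.

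Markers of squamous epithelium were present in all 4 libraries. Of 27 squamous markers, 26 in KYSE510 and 27 in TE7 reached 1 FPKM under THZ1, against 27 and 26 in DMSO. Their summed level was 3068 FPKM in KYSE510 and 4098 FPKM in TE7 under THZ1, against 5020 and 4810 FPKM in DMSO. Of 12 leukocyte markers 1 reached 1 FPKM in each of the 4 libraries, CD68, and of 6 endothelial markers none did. Fibroblast markers reached it in 3 and 1 of 10 cases under THZ1 in KYSE510 and TE7, against 2 and 3 in DMSO, with sums of 19.4 and 3.60 FPKM, against 12.8 and 8.11 FPKM. Columnar epithelial markers reached it in 0 and 1 of 11 cases under THZ1, against 1 and 2 in DMSO.

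Most transcripts were lower after 6 h of 200 nM THZ1. Tested were 15595 nuclear genes that reached 1 FPKM in 2 or more of the 12 libraries, of which 9370 (60.1%) were lower in both lines and 1746 (11.2%) higher in both. The median log2 change was -0.54 in KYSE510 and -0.70 in TE7, on the log2(FPKM + 1) scale used throughout, which understates changes of weakly expressed genes. In limma, with cell line as a block and Benjamini-Hochberg adjustment at 0.05, 505 genes were higher (3.24% of those tested) and 5511 were lower (35.3%), 38.6% in either direction. Among the 12298 protein-coding genes 40.8% were lower, the share to hold against the lists of protein-coding genes that follow. Taken 1 line at a time and without a test, 69.8% of tested genes were lower in KYSE510 and 78.4% in TE7. Falls of at least 2-fold in both lines were seen for 3190 genes (20.5%), rises of that size for 195 (1.25%), and changes of that size in opposite directions for 228 (1.46%).

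**Figure D1:**
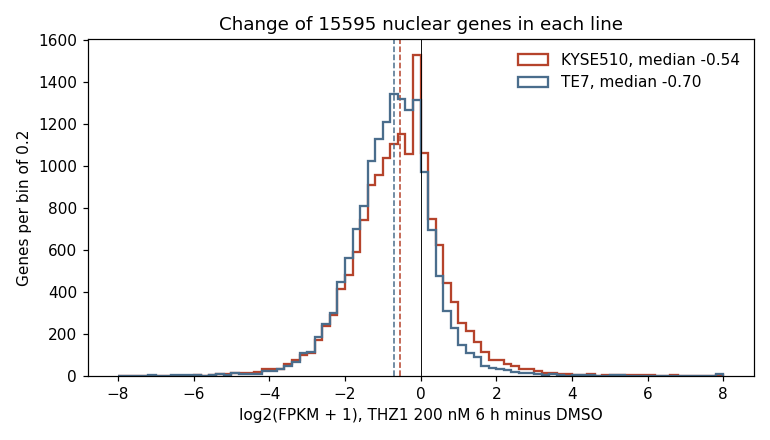
Histogram of the log2(FPKM + 1) difference, THZ1 200 nM 6 h minus DMSO, for 15595 nuclear genes in bins of 0.2; values beyond 8 are drawn at the edge, and dashed lines mark the medians. The bulk of genes lies left of 0 in both lines, with medians of -0.54 in KYSE510 and -0.70 in TE7.

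Since most genes fell, each change was also measured relative to the median gene, by subtracting from each library its median deviation over all tested genes. On that scale 1856 genes were higher (11.9%) and 1983 lower (12.7%), so the excess of falls depends on the deposited scaling; the shift in the fit was -0.65 log2 units. Median-of-ratios scaling gave 1680 higher and 2045 lower, and upper-quartile scaling 2693 higher and 1396 lower. A fall named below is on the deposited scale, and the change relative to the median gene is given where it alters the call.

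**Figure D2:**
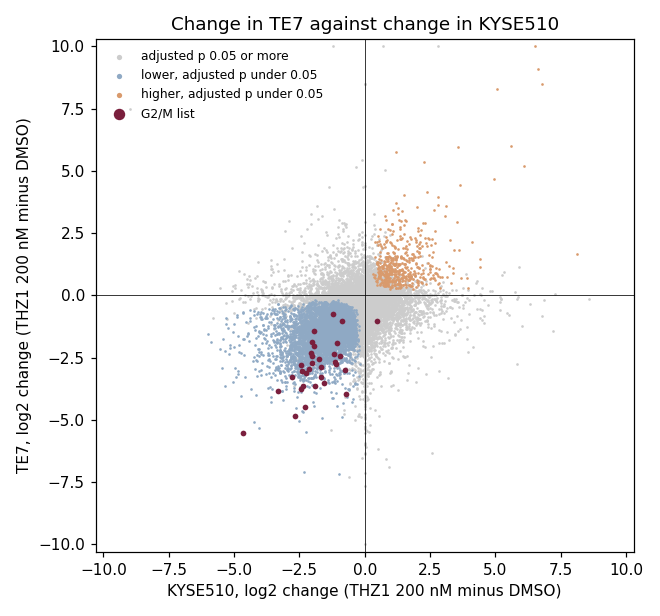
Log2 change (THZ1 200 nM 6 h minus DMSO) in TE7 against that in KYSE510, 1 point per tested gene, coloured by the limma call, with the 32 G2/M genes in dark red; 5 genes beyond 10 log2 units are drawn at the edge. The called genes lie along the diagonal, which the fit itself favours, because disagreement between the lines widens the spread of a gene. Of the 32 G2/M genes, 31 lie below 0 in both lines.

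Genes of mitosis fell more widely than those of any other list examined. Of 32 tested G2/M genes, which build and time the spindle, 30 fell and none rose, against a background of 35.3% lower, and 24 were still lower relative to the median gene. Their median log2 change was -1.95 in KYSE510 and -2.82 in TE7. Median-of-ratios scaling left 24 lower. The number lower was the same or smaller when any 1 of the 4 libraries was left out, which leaves 1 library in a group. Without a test, 31 of the 32 were lower in both lines.

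AURKA, the mitotic kinase of the centrosome (hg19 chr20:54944445-54967393), had 2.52 FPKM in KYSE510 and 1.62 FPKM in TE7 under THZ1, against 87.5 and 119 FPKM in DMSO. That was the largest fall of all named genes, -5.09 ± 0.30 log2 units (SE; adjusted p = 0.000254), and the groups did not overlap. CCNB1, the cyclin that drives entry into mitosis, had 21.5 and 3.92 FPKM under THZ1, against 142 and 142 FPKM in DMSO. PLK1, a kinase of spindle assembly, had 15.3 and 4.94 FPKM under THZ1, against 79.0 and 130 FPKM in DMSO. The spindle checkpoint kinase TTK had 2.88 and 0.636 FPKM under THZ1, against 38.0 and 22.5 FPKM in DMSO. In all 4 genes both lines moved the same way, and TE7 was the lower line under THZ1. The 2 G2/M genes that did not pass were KIF4A, a chromosome kinesin with an adjusted p of 0.0577, and FOXM1, the transcription factor of this gene group. FOXM1 had 65.9 FPKM in KYSE510 and 72.0 FPKM in TE7 under THZ1, against 47.5 and 150 FPKM in DMSO, so its lines went opposite ways (adjusted p = 0.521).

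Promoters of G2/M genes are known for CCAAT boxes, bound by NF-Y, and for the CHR element, bound by the MuvB complexes that time their expression. RefSeq windows (GRCh38.p14; 250 bases before to 50 after the start) were matched to 9983 of 12298 tested protein-coding genes and to 27 of the G2/M genes. TTTGAA or TTTAAA, the CHR letters, stood on either strand in 21 of the 27 (77.8%), against 15.4% of all matched genes. CCAAT stood on either strand in 21 of 27 (77.8%), against 36.7%, and both motifs together in 17 of 27 (63.0%), against 6.24%. The 250 bases before the start are shown for the 4 matched G2/M genes with the largest falls, with CCAAT (or ATTGG, its reverse) and the CHR letters in capitals. They lie at chr5:69166900-69167149 (+ strand) for CCNB1, chr16:23678639-23678888 (+) for PLK1, chr1:211675622-211675871 (- strand) for NEK2 and chr5:138178862-138179111 (+) for KIF20A.
CCNB1: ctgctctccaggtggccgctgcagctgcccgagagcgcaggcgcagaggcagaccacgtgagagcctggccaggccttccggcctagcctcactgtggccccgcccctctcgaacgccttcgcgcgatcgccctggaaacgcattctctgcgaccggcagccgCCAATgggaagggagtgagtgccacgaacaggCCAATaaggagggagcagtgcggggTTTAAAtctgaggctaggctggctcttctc
PLK1: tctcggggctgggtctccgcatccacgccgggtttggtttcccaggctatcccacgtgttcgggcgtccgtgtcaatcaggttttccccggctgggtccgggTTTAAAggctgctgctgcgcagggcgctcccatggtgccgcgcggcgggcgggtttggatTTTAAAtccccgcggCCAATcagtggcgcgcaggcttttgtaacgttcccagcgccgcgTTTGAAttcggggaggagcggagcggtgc
NEK2: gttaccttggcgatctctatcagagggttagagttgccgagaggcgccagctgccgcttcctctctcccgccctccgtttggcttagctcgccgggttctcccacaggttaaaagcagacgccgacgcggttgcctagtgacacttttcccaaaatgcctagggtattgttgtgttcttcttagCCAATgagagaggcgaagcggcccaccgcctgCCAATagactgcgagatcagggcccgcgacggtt
KIF20A: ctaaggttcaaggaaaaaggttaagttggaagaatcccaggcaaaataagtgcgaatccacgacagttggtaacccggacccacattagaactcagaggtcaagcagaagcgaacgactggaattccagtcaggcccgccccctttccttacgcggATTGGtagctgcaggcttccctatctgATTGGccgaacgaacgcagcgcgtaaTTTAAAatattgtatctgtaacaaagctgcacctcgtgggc
CCNB1 and KIF20A each hold 2 CCAAT boxes and 1 CHR match, PLK1 holds 1 and 3, and NEK2 holds 2 CCAAT boxes with no CHR match before its start. NEK2, a centrosome kinase, had 6.96 and 2.06 FPKM under THZ1, against 41.9 and 40.5 FPKM in DMSO, a fall as large as that of KIF20A, a kinesin of cytokinesis (log2 change -3.10 ± 0.34 and -3.03 ± 0.23, SE). Over all genes, both motifs together stood in 7.55% of the promoters of genes that fell and 7.04% of those that rose. Relative to the median gene the shares were 8.33% of lower and 4.46% of higher genes. TATAAA, the TATA box, stood in 4.83% of genes that fell and 7.04% of those that rose, against 5.55% of all.

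Of 43 G1/S genes, which prepare and carry out DNA replication, 21 fell (48.8%) and none rose, and 7 were lower and 4 higher relative to the median gene. CDC6, which loads the replicative helicase, had 3.81 and 9.41 FPKM under THZ1, against 21.6 and 61.5 FPKM in DMSO (log2 change -2.41 ± 0.19, SE; adjusted p = 0.000402). Among 37 homologous recombination and Fanconi genes 16 fell (43.2%, near the 40.8% of all protein-coding genes) and none rose, and 9 were lower and 4 higher relative to the median gene. BLM, a helicase that dissolves recombination intermediates, had 1.66 and 5.09 FPKM under THZ1, against 17.9 and 20.8 FPKM in DMSO. Its partner RMI2 had 1.60 and 3.27 FPKM under THZ1, against 27.2 and 33.6 FPKM in DMSO.

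CDK7, the kinase that THZ1 inhibits, was itself lower. CDK7 (hg19 chr5:68530668-68573250) had 7.99 FPKM in KYSE510 and 2.50 FPKM in TE7 under THZ1, against 21.9 and 26.5 FPKM in DMSO. Its log2 change was -2.17 ± 0.36 (SE; adjusted p = 0.00309) and remained past the threshold relative to the median gene (adjusted p = 0.0186). Of its partners in TFIIH, the assembly factor MNAT1 had 31.0 and 26.7 FPKM under THZ1, against 58.8 and 60.2 FPKM in DMSO (adjusted p = 0.00964), and the cyclin CCNH had 14.3 and 6.33 FPKM, against 19.2 and 23.2 FPKM (0.0437, but over 0.05 in 11 of the 12 fits that leave out a library). Neither passed relative to the median gene (adjusted p = 0.304 and 0.399). CDK13 had 4.29 and 3.71 FPKM under THZ1, against 10.2 and 10.2 FPKM in DMSO (adjusted p = 0.00845), though not relative to the median gene (adjusted p = 0.171). CDK12 had 14.3 and 8.10 FPKM under THZ1, against 18.6 and 16.0 FPKM in DMSO, and did not pass (adjusted p = 0.0567). Of 16 transcription kinases and their cyclins 10 fell and 1 rose, while relative to the median gene 2 were lower and 3 higher. The riser was CCNL2, a cyclin of the splicing-linked kinase CDK11, with 95.8 and 224 FPKM under THZ1, against 42.6 and 93.7 FPKM in DMSO (log2 change 1.20 ± 0.17, SE; adjusted p = 0.00152). CDK9, the kinase that releases paused polymerase, fell (adjusted p = 0.0147), but not relative to the median gene (0.134) or without KYSE510 DMSO (0.0677).

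Among 29 general transcription factors 16 fell and none rose. GTF2B (hg19 chr1:89318615-89357627) encodes TFIIB, which positions polymerase at the start. It is 1 of the 6 protein-coding genes that split the TE7 libraries. It had 1.04 FPKM in KYSE510 and 0.462 FPKM in TE7 under THZ1, against 17.4 and 19.9 FPKM in DMSO, a change of -3.50 ± 0.21 (SE; adjusted p = 0.000254). GTF2E1, the large subunit of TFIIE, had 0.911 and 0.852 FPKM under THZ1, against 11.5 and 7.44 FPKM in DMSO. Mediator, which links enhancers to polymerase, had 21 of 29 subunits lower and none higher, and 10 were lower relative to the median gene. The steepest was the head subunit MED11, with 3.32 and 2.10 FPKM under THZ1, against 19.3 and 15.5 FPKM in DMSO. Of the 12 subunits of the polymerase itself 2 fell, POLR2B and POLR2D, and none rose. Relative to the median gene only POLR2D of these 2 passed (adjusted p = 0.146 for POLR2B), and 4 subunits were higher. POLR2A, its largest subunit and the substrate of CDK7, had 33.6 and 26.7 FPKM under THZ1, against 47.2 and 39.9 FPKM in DMSO, which did not pass (adjusted p = 0.0753).

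Of the RNA processing genes, in the list of cleavage, polyadenylation and Integrator genes 16 of 31 fell and none rose. Relative to the median gene 8 were lower and 2 higher. CSTF1, a subunit of the factor that binds downstream of the poly(A) signal, had 1.78 and 3.30 FPKM under THZ1, against 33.3 and 53.9 FPKM in DMSO (log2 change -3.65 ± 0.22, SE; adjusted p = 0.000254). INTS5, of the Integrator complex, had 1.22 and 1.03 FPKM under THZ1, against 14.4 and 17.5 FPKM in DMSO. Of 38 splicing genes 22 fell, led by SRSF3, with 3 lower and 4 higher relative to the median gene. Of 19 mRNA export genes 9 fell, led by THOC1 (47.4%, against 40.8% of all protein-coding genes), and 4 were lower relative to the median gene. WDR82 and ZC3H4, which form a complex that ends unproductive transcription, fell by 2.90 ± 0.21 and by 2.40 ± 0.28 log2 units (SE), and 10 of the 14 silencing genes listed with them fell.

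**Figure D3:**
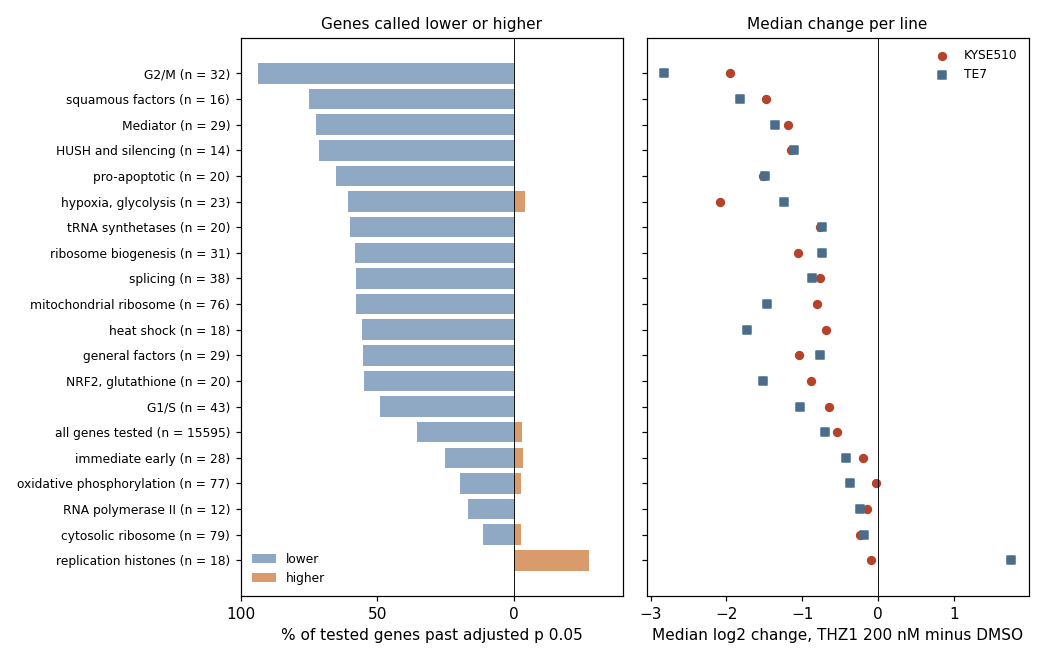
Left, share of tested genes in each list that was called lower (bars to the left) or higher (bars to the right) in THZ1 200 nM 6 h against DMSO; right, median log2 change in KYSE510 (circles) and TE7 (squares). G2/M genes have the widest fall (30 of 32), while cytosolic ribosomal proteins (9 of 79) lie below the share of all genes tested (35.3%).

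Of 16 squamous transcription factors 12 fell and none rose, and 9 were lower relative to the median gene, with median log2 changes of -1.47 in KYSE510 and -1.82 in TE7. SOX2, another lineage factor, went opposite ways, with 84.9 FPKM in KYSE510 and 0.975 FPKM in TE7 under THZ1, against 8.37 and 18.5 FPKM in DMSO. TP63 (hg19 chr3:189349205-189615068), the master factor of squamous epithelium, had 16.6 FPKM in KYSE510 and 10.2 FPKM in TE7 under THZ1, against 79.7 and 80.8 FPKM in DMSO (log2 change -2.53 ± 0.30, SE; adjusted p = 0.000829). TFAP2C, an AP-2 factor of surface epithelia, had 0.220 and 1.27 FPKM under THZ1, against 28.4 and 20.8 FPKM in DMSO. ELF3, an epithelial ETS factor, had 7.83 and 5.32 FPKM under THZ1, against 291 and 68.8 FPKM in DMSO (log2 change -4.26 ± 0.41, SE). GRHL2, a grainyhead factor (adjusted p = 0.011, and 0.0559 without KYSE510 DMSO), fell to 0.112 FPKM in KYSE510 under THZ1, against 16.9 FPKM in DMSO, and to 7.21 FPKM in TE7, against 22.5 FPKM. TFAP2C and GRHL2 are among the 163 genes that split the KYSE510 libraries. The number of falling factors was smaller without KYSE510 DMSO or TE7 200 nM, fits that leave 1 library in a group. Without a test, 13 of the 16 were lower in both lines.

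Structural squamous genes were mixed, with 8 of 27 lower and 2 higher. KRT15, a basal keratin, had 13.4 and 3.25 FPKM under THZ1, against 642 and 30.7 FPKM in DMSO. At 50 nM 2 h it already had 82.3 FPKM in KYSE510 and 10.7 FPKM in TE7, so DMSO stood above every treated library. KRT15 was lower again at 200 nM than at 50 nM 6 h (log2 difference -1.92, limma adjusted p = 0.0262). The part of the DMSO libraries in its fall was not tested. COL17A1, the hemidesmosomal collagen, had 163 and 311 FPKM under THZ1, against 24.7 and 166 FPKM in DMSO (adjusted p = 0.0198, but 0.0713 without KYSE510 200 nM and 0.0527 without TE7 200 nM). KRT6A, a keratin of stressed epithelium, had 14.4 FPKM in KYSE510 DMSO, 1657 FPKM at 50 nM 6 h and 930 FPKM at 200 nM. The library that stands apart there is DMSO. On the deposited scale KRT6A did not pass (adjusted p = 0.0675), but relative to the median gene it was called higher (limma adjusted p = 0.0476). In TE7 it had 423 FPKM at 200 nM, against 190 FPKM in DMSO. PRSS8, a protease of the epithelial surface, had 0.194 and 1.17 FPKM under THZ1, against 23.6 and 28.7 FPKM in DMSO, and was among the steepest falls (-4.07 ± 0.24, SE). It too is among the 163 genes that split the KYSE510 libraries.

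Of 5 genes that the study of these cells linked to super-enhancers, and which are therefore no independent evidence, 3 fell and none rose. PAK4, a kinase of the actin cytoskeleton, had 4.97 and 7.74 FPKM under THZ1, against 27.03 and 35.33 FPKM in DMSO, and was lower relative to the median gene too (adjusted p = 0.00726). DNAJB1, a co-chaperone, had 10.7 and 23.4 FPKM under THZ1, against 51.7 and 73.4 FPKM in DMSO, and YAP1, the Hippo effector, had 21.0 and 36.3 FPKM, against 112 and 59.2 FPKM. Neither passed relative to the median gene (adjusted p = 0.0818 and 0.137), and both lost their call without KYSE510 200 nM (0.0591 for YAP1 and 0.0675 for DNAJB1, which had 0.0877 without TE7 DMSO). SREBF2, a regulator of sterol synthesis, and RUNX1 did not pass (adjusted p = 0.357 and 0.719). MYC, the proliferation factor, had 73.2 and 8.76 FPKM under THZ1, against 179 and 45.2 FPKM in DMSO. Its change of -1.76 ± 0.52 (SE; adjusted p = 0.0292) did not pass relative to the median gene (0.159), nor without KYSE510 DMSO (0.125), TE7 DMSO (0.0646) or TE7 200 nM (0.154).

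Receptors and early genes of growth signalling split. Of 27 receptor tyrosine kinase and feedback genes 9 fell (33.3%, below the 40.8% of all protein-coding genes) and 2 rose. Relative to the median gene 5 were lower and 4 higher. FGFR3, a receptor for fibroblast growth factors, had 2.73 and 8.08 FPKM under THZ1, against 22.4 and 67.3 FPKM in DMSO (log2 change -2.78 ± 0.19, SE; adjusted p = 0.000353), and ERBB2 and ERBB3 fell with it. FGFR1 rose, with 12.0 and 5.72 FPKM under THZ1, against 1.14 and 1.01 FPKM in DMSO (adjusted p = 0.0136, but 0.0525 without KYSE510 DMSO and 0.0663 without TE7 200 nM), as did the feedback inhibitor SPRY4 (0.0336, but 0.0543 to 0.127 in 7 of the 12 fits that leave out a library). Among 28 immediate early genes 7 fell (25.0%, also below that share) and 1 rose, with 3 lower and 3 higher relative to the median gene. FOS had 6.67 and 12.2 FPKM under THZ1, against 76.1 and 97.8 FPKM in DMSO. FOSL2, another AP-1 subunit, had 4.51 and 2.02 FPKM under THZ1, against 54.8 and 30.5 FPKM in DMSO.

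IER3, a short early gene with a role in survival signalling (hg19 chr6:30710976-30712331), was the riser. It had 978 FPKM in KYSE510 and 164 FPKM in TE7 under THZ1, against 91.0 and 45.8 FPKM in DMSO, a change of 2.61 ± 0.35 (SE; adjusted p = 0.00129). It was also higher than at 50 nM 6 h, where it had 166 and 55.5 FPKM (adjusted p = 0.00543). RELA, a subunit of NF-kB, was lower, with 8.95 and 10.7 FPKM under THZ1, against 41.7 and 41.8 FPKM in DMSO (adjusted p = 0.000443). Of 20 NF-kB and cytokine genes 9 fell (45.0%, near the 40.8% of all protein-coding genes) and none rose. Relative to the median gene 3 were lower and 1 higher. TNFRSF1A, the main TNF receptor, had 4.40 and 2.80 FPKM under THZ1, against 64.3 and 62.7 FPKM in DMSO (log2 change -3.83 ± 0.30, SE).

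**Figure D4:**
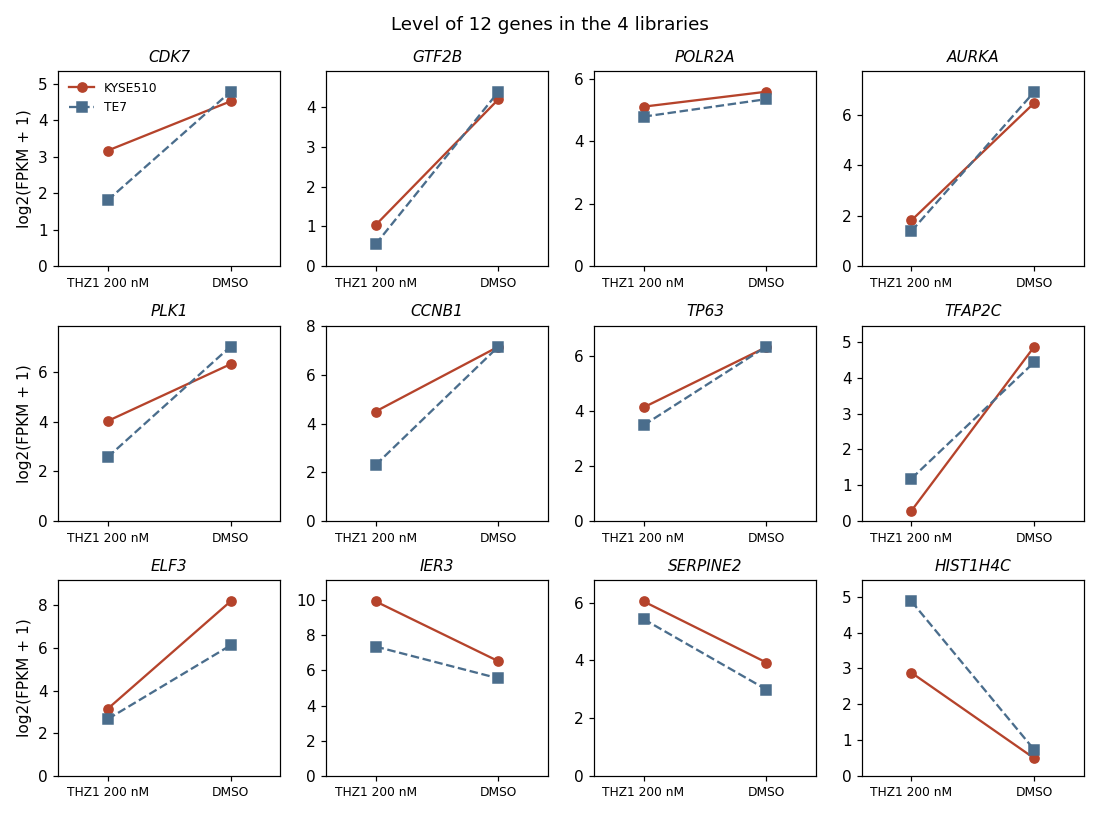
Level of 12 genes, as log2(FPKM + 1), in the THZ1 200 nM 6 h library (left) and the DMSO library (right) of KYSE510 (circles, solid line) and TE7 (squares, dashed line), 1 library per point. The first 9 genes are lower under THZ1 in both lines, of which POLR2A did not pass the test, and IER3, SERPINE2 and HIST1H4C are higher in both.

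Of 20 pro-apoptotic genes 13 fell and none rose, and 9 were lower and 1 higher relative to the median gene. APAF1, the scaffold of the apoptosome, had 1.31 and 1.18 FPKM under THZ1, against 9.48 and 13.4 FPKM in DMSO. Of 10 anti-apoptotic genes 4 fell, near the share of all protein-coding genes, and none was lower relative to the median gene. MCL1, a short-lived survival protein often followed under CDK inhibitors, had 42.5 and 75.3 FPKM under THZ1, against 144 and 101 FPKM in DMSO, and did not pass (adjusted p = 0.0594). Of 23 p53 target genes 11 fell (47.8%, against 40.8% of all protein-coding genes) and none rose, led by PHLDA3. Relative to the median gene 4 of the p53 targets were lower and 1 higher.

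Several stress and metabolic genes were among the falls. HSPA8, the constitutive HSP70 chaperone, had 120 and 78.1 FPKM under THZ1, against 559 and 993 FPKM in DMSO (log2 change -2.93 ± 0.31, SE; adjusted p = 0.000632). Of 18 heat shock genes 10 fell, and relative to the median gene 4 were lower and 2 higher. NFE2L2, which encodes the oxidant sensor's factor NRF2, had 9.13 and 3.48 FPKM under THZ1, against 64.3 and 58.5 FPKM in DMSO. In its list 11 of the 20 genes fell, and relative to the median gene 4 were lower and none higher. NDRG1, a hypoxia-induced gene, had 9.11 and 9.77 FPKM under THZ1, against 407 and 132 FPKM in DMSO (log2 change -4.48 ± 0.40, SE). At 50 nM 2 h it already had 72.9 FPKM in KYSE510 and 28.8 FPKM in TE7, so DMSO stood far above every treated library. It was lower again at 200 nM than at 50 nM 6 h (log2 difference -2.39, limma adjusted p = 0.00517). The part of the DMSO libraries in this fall was not tested. Of 23 hypoxia and glycolysis genes 14 fell and 1 rose, the angiogenic ligand VEGFA, whose adjusted p of 0.0339 became 0.0534 to 0.0993 in 9 of the 12 fits that leave out a library. MVK, an enzyme of sterol synthesis, fell by 2.68 ± 0.24 log2 units (SE), and 12 of 27 genes of the cholesterol and fatty acid list fell (44.4%), near the share of all protein-coding genes. On the deposited scale no gene of these lists other than VEGFA rose.

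The ribosomes of the cytosol and of mitochondria differed. Of 79 cytosolic ribosomal protein genes 9 fell and 2 rose, and relative to the median gene 14 were higher and none lower. Their median log2 change was -0.24 in KYSE510 and -0.19 in TE7, and turned positive relative to the median gene (0.30 and 0.52). RPL30 had 1273 and 2476 FPKM under THZ1, against 911 and 1830 FPKM in DMSO, a rise whose adjusted p of 0.0481 became 0.0634 to 0.119 in 10 of the 12 such fits. Of 76 mitochondrial ribosomal protein genes 44 fell and none rose, with medians of -0.81 and -1.46. Relative to the median gene 25 were lower and 3 higher. MRPL44 had 4.21 and 2.19 FPKM under THZ1, against 30.3 and 24.9 FPKM in DMSO. Nuclear genes of oxidative phosphorylation sat with the cytosolic ribosome: 15 of 77 fell, 2 rose, and 20 were higher and 1 lower relative to the median gene. NDUFB2, of respiratory complex I, had 174 and 182 FPKM under THZ1, against 83.0 and 119 FPKM in DMSO (adjusted p = 0.00812). No test compared the lists with each other.

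Rises were few. SERPINE2, a secreted inhibitor of serine proteases, had 65.0 and 42.1 FPKM under THZ1, against 14.2 and 6.94 FPKM in DMSO (log2 change 2.28 ± 0.39, SE; adjusted p = 0.00332). COL4A1, a basement membrane collagen, had 20.1 and 14.2 FPKM under THZ1, against 3.86 and 3.03 FPKM in DMSO. Replication-dependent histone genes, whose mRNAs normally carry no poly(A) tail, were the list with the highest share of rises, 5 of 18 against 3.24% of all genes, with none lower. In TE7 their median change was positive, and 26 genes, RNU6 copies among them, reach 8 FPKM at 200 nM alone. Those 26 stay under 0.5 FPKM in every TE7 library at 50 nM. HIST1H4C and HIST1H2BG, picked for their steep rises, were above DMSO in both lines at 50 nM 12 h. There they had 7.221 and 10.04 FPKM in TE7, and 10.97 and 9.463 FPKM in KYSE510. HIST1H2BD, which did not pass, had 8.616 FPKM in TE7 at 50 nM 12 h, against 9.814 FPKM in DMSO. The part of the split between the TE7 libraries in the rises was not tested. HIST1H4C had 6.36 FPKM in KYSE510 and 28.3 FPKM in TE7 under THZ1, against 0.402 and 0.651 FPKM in DMSO (log2 change 3.27 ± 0.64, SE; adjusted p = 0.00572). HIST1H2BG had 5.31 and 32.9 FPKM under THZ1, against a listed 0 and 2.17 FPKM in DMSO, but its adjusted p of 0.0166 became 0.0999 without KYSE510 DMSO and 0.0794 without TE7 200 nM. The histone genes are near-identical copies whose reads could be shared, and the median change of the list was -0.09 in KYSE510 and 1.75 in TE7. MALAT1, an abundant nuclear RNA, had 33.3 and 114 FPKM under THZ1, against 15.5 and 14.9 FPKM in DMSO (adjusted p = 0.0246, but 0.0787 and 0.0879 without the KYSE510 and TE7 DMSO libraries and 0.0709 without TE7 200 nM). NEAT1, its neighbour, had 84.3 and 66.5 FPKM under THZ1, against 124 and 119 FPKM in DMSO, and did not pass (adjusted p = 0.161).

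Several of the steepest risers lie against another transcribed gene. FAM166A had 8.22 and 21.9 FPKM under THZ1, against 0.0588 and 0.923 FPKM in DMSO, a change of 3.35 ± 0.30 (SE; adjusted p = 0.000443), and is among the 91 genes that split the KYSE510 libraries the other way. Its locus overlaps TUBB4B, a tubulin gene on the other strand, which had 166 and 100 FPKM under THZ1, against 396 and 612 FPKM in DMSO. P2RY11, a purinergic receptor whose locus overlaps PPAN, had 13.5 and 20.5 FPKM under THZ1, against 2.64 and 4.40 FPKM in DMSO. LY6G5B, which overlaps CSNK2B, had 22.0 and 22.3 FPKM under THZ1, against 4.43 and 5.98 FPKM in DMSO. EME2, whose locus overlaps SPSB3, had 16.8 and 10.9 FPKM under THZ1, against 3.27 and 2.63 FPKM in DMSO. PPAN and CSNK2B lie on the same strand as P2RY11 and LY6G5B, where counting by strand could not separate the reads of neighbours. TUBB4B and SPSB3 lie on the other strand, and the sources used here do not say whether the counting used strand. Reads from such neighbours therefore cannot be told apart.

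Such neighbours were counted for all protein-coding genes. Among 281 protein-coding genes that rose, 100 (35.6%) had a tested protein-coding neighbour on the same strand. Such a neighbour began upstream and reached to within 5 kb of the gene's start or beyond, also past the gene's end. The share was 10.9% among the 5023 that fell and 13.6% among all 12298 tested. For a convergent gene on the other strand, ending inside the gene or within 5 kb past its end, the shares were 34.2%, 21.1% and 23.7%. In the lowest quartile of mean FPKM the share with a same-strand neighbour was 46.0% of risers and 10.7% of fallers, and in the highest quartile 21.5% and 12.1%. This grouping was chosen after the values of the risers were seen; genes are not replicates, and no test was run on it.

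**Figure D5:**
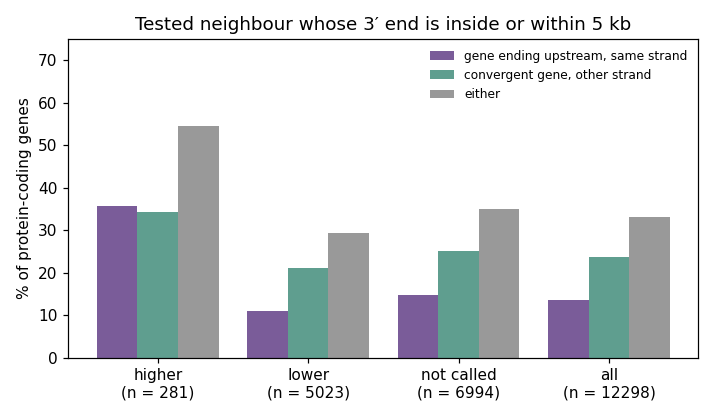
Share of tested protein-coding genes with a tested neighbour, for genes called higher or lower under THZ1 200 nM against DMSO, not called, and all. Same-strand neighbours (purple) begin upstream and reach to within 5 kb of the start or beyond, also past the gene's end. Neighbours on the other strand (green) have their 3′ end inside the gene or within 5 kb past its end. Grey bars show either kind. The same-strand share is 35.6% among genes that rose, against 10.9% among genes that fell.

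The share of falls was also described by level and locus length, without a test, beside 40.8% of all protein-coding genes. In the lowest quartile of level the log2(FPKM + 1) scale understates changes. Protein-coding genes in the lowest quartile of mean FPKM fell in 28.2% of cases, those in the middle quartiles in 49.7% and 50.1%, and those in the highest in 35.4%. By span of the locus, the share was 34.0% in the shortest quartile, 45.0% and 46.7% in the middle ones and 37.8% in the longest. Zinc finger genes named ZNF fell in 164 of 366 cases (44.8%, near the 40.8% of all protein-coding genes) and rose in 3. Pseudogenes rose in 78 of 775 cases and fell in 69, and antisense RNAs rose in 55 of 1099 and fell in 170; in TE7 such noncoding classes cannot be told apart from the split between its libraries described above.

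A direct test set 200 nM against 50 nM at 6 h. It shares the 200 nM libraries with the comparison against DMSO, so the values are given side by side. At the higher dose 461 genes were higher (2.96%) and 3418 were lower (21.9%). Without KYSE510 50 nM 6 h these counts were 50 and 841, without TE7 50 nM 6 h 57 and 1096, and upper-quartile scaling turned the balance to 1511 higher and 1206 lower. GTF2B had 35.6 FPKM in KYSE510 and 34.6 FPKM in TE7 at 50 nM 6 h, and its difference between doses was -4.38 log2 units (adjusted p = 0.00023). POLR2A had 109 and 123 FPKM at 50 nM, against 47.2 and 39.9 FPKM in DMSO, and was lower at 200 nM than at 50 nM (log2 difference -1.92, adjusted p = 0.000977). TUBB4B had 1059 and 902 FPKM at 50 nM, and GCLC, the rate-limiting enzyme of glutathione synthesis, had 62.5 and 17.4 FPKM in DMSO, 193 and 22.6 FPKM at 50 nM and 15.1 and 2.21 FPKM at 200 nM. For these 4 genes the 50 nM 6 h libraries lay above DMSO in both lines and the 200 nM libraries below it. At 50 nM 12 h in TE7, TUBB4B had 588 FPKM and GCLC 10.7 FPKM, both below TE7 DMSO. AURKA, with 31.9 and 31.4 FPKM at 50 nM, lay between, and differed between doses by -3.43 (adjusted p = 0.000609). BLM differed little between doses, with 2.12 and 5.28 FPKM at 50 nM (log2 difference -0.14, adjusted p = 0.76), as did ZC3H4, with 2.40 and 1.65 FPKM (0.08, adjusted p = 0.856); a p above the threshold does not show that the doses act alike.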

How the data were processed

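Poly(A) RNA was measured in 12 libraries. The authors deposited FPKM per gene with confidence bounds; per the submitters' processing notes they used STAR and Cufflinks on hg19. The sources used here give no versions, annotation, read depth or strand setting. From these tables, the FPKM of identifiers listed at several loci (108 of 57755) were summed, 37 mitochondrially encoded genes were left out, and log2(FPKM + 1) was analysed in limma 3.58.1 (R 4.3.3). The fit held 6 conditions and cell line, with a mean trend in the variance (5 residual and 2.91 prior degrees of freedom), so that the 50 nM libraries lent their spread. All p-values are two-sided and were adjusted over 15595 genes (Benjamini-Hochberg). Of estimates in the 4 libraries, 22 were marked failed by the authors' software and kept as listed. Libraries were paired because same-numbered ones come from the same cell line. Biotypes and neighbours came from GENCODE 29 by gene identifier and promoters from RefSeq; gene coordinates are those of the files.

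The fit was tested on simulated data with 15595 genes for this comparison: of 40 genes each, 35 were recovered at a log2 change of -3, 24 at -2, 6 at -1, 5 at 1 and 26 at 2, with 5 false calls. Named genes were the 15 largest rises and falls at a mean of 5 FPKM or more, ranked by the smaller line change, up to 4 per list with the largest mean change, and fixed genes of the study. FOXM1, KIF4A, NEK2, KIF20A, MNAT1, CCNH, CCNL2, COL17A1, FGFR1, SPRY4, VEGFA, RPL30, NDUFB2, MALAT1, NEAT1, CD68, UCHL1, TUSC3, PRSS21, CTAG2 and overlapping neighbours were named after their values were seen. The members and gene lists were chosen with earlier results of these data known. Some genes are not reported here.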

Additional observations from a re-analysis of the deposited data

Results flagged for a closer look

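Genes and lists whose direction differed between the lines are given here, and the difference between lines was not tested, because each line has 1 library per condition. SOX2, a squamous lineage factor, changed by 3.20 log2 units in KYSE510 and by -3.30 in TE7, with 84.9 and 0.975 FPKM under THZ1, against 8.37 and 18.5 FPKM in DMSO. DMRT2 changed by 2.85 and -3.02, ALDH1A1, a retinal dehydrogenase, by 5.84 and -2.77, and SPG20 by 2.33 and -3.14 in KYSE510 and TE7. TAGLN, an actin-binding protein, changed by -2.23 in KYSE510 and 2.65 in TE7. None of these 5 passed the test over both lines. In KYSE510, ALDH1A1 had 75.3 FPKM at 50 nM 6 h and 0.585 FPKM in DMSO, so the value that stands apart there is the DMSO library's.

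The median change of replication-dependent histone genes was -0.090 in KYSE510 and 1.75 in TE7. For nuclear long noncoding RNAs it was -0.77 in KYSE510 and 0.050 in TE7.

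Mitochondrially encoded genes, left out of the tests, held 0.143% of FPKM in the KYSE510 library under 200 nM THZ1, against 0.00857% in KYSE510 DMSO. In TE7 the share was 0.0434% under 200 nM, against 8.88% in DMSO.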

How the results depend on the processing

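Cell line is a replicate block in the fit. With no replicate block, 151 genes were higher and 2654 lower against DMSO, 368 and 487 relative to the median gene, and 86 and 1261 against 50 nM. In the fit of only the 4 libraries with the replicate block, which has 1 residual degree of freedom, limma called 0 genes in each comparison, with 4092, 2710 and 3370 genes at an unadjusted p under 0.05. Against DMSO, higher and lower counts were 774 and 4653 with no filter on low values, 228 and 4174 at a mean of 5 FPKM, 1680 and 2045 with median-of-ratios scaling, and 2693 and 1396 with upper-quartile scaling. Relative to the median gene, the fit with no filter gave 1028 and 4469. Against 50 nM, 195 were higher at a mean of 5 FPKM; equal sums gave 741 and 2021, median-of-ratios 1135 and 1557, and upper-quartile scaling 1511 and 1206. The cause of these moves was not tested.

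Leaving out 1 library in turn gave 357 to 923 higher and 4615 to 5779 lower against DMSO, 1146 to 2287 and 1325 to 2499 relative to the median gene, and 50 to 1054 and 841 to 4309 against 50 nM. The count higher against DMSO was 917 without TE7 DMSO and 923 without TE7 200 nM. Relative to the median gene, those higher were 1146 to 1150 without a 50 nM library of 4 or 6 h. Against 50 nM, 50 and 57 were higher and 841 and 1096 lower without KYSE510 and TE7 50 nM 6 h, those higher were 264 to 296 without a 50 nM library of 2 or 4 h, and 1054 without TE7 200 nM.

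Chosen after seeing the data, protein-coding genes alone gave 310 higher against DMSO and 273 against 50 nM. Without both KYSE510 libraries of DMSO and 200 nM, counts were 1179 higher and 8230 lower against DMSO, 3950 and 3774 relative to the median gene, and 1457 and 6232 against 50 nM; the lone TE7 libraries are then assumed to vary like the others. That fit reuses the TE7 libraries behind the 5511 falls and 505 rises, so its overlap with those calls is no independent support. With all 12 libraries, median-of-ratios scaling kept 37.1% of the falls, upper-quartile scaling 25.3% and equal sums 70.1%. Each of these scalings kept 99.8% or more of the rises. With upper-quartile scaling MNAT1 changed by 0.074 and SPSB3 by 0.013. CD68 changed by 1.13 without both KYSE510 libraries and by -1.792 to 1.399 with 1 library left out. DMRT2 changed by -2.85 to 2.68 with 1 library left out, and ALDH1A1 by -2.77 without both KYSE510 libraries. FPKM give no read counts, so the depth behind each value is unknown.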

Other observations

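Of 20 aminoacyl-tRNA synthetase genes 12 fell and none rose, and RARS, which charges the arginine tRNA, had 16.6 FPKM in KYSE510 and 4.74 FPKM in TE7 under THZ1, against 78.4 and 40.6 FPKM in DMSO. Of 31 ribosome biogenesis genes 18 fell and none rose, while relative to the median gene 10 were lower and 4 higher. GNL3, a nucleolar GTP-binding protein, had 8.46 and 5.55 FPKM under THZ1, against 59.5 and 46.2 FPKM in DMSO. Of 15 tubulin genes 9 fell and none rose. Of 15 circadian genes 6 fell and none rose, near the 40.8% of all protein-coding genes. Among the falls were DBP, with 1.42 and 0.731 FPKM under THZ1, against 24.0 and 12.3 FPKM in DMSO, and NFIL3, with 0.956 and 1.07 FPKM, against 9.27 and 10.4 FPKM.

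Some of the steepest falls were in genes with little annotation in the lists used. TCEAL8, an X-linked gene, had 0.0385 and 1.24 FPKM under THZ1, against 26.8 and 36.3 FPKM in DMSO, and is among the genes that split the KYSE510 libraries. JAGN1, a protein of the endoplasmic reticulum, had 1.30 and 1.54 FPKM under THZ1, against 26.9 and 23.9 FPKM. CASC19, a noncoding RNA, rose instead (log2 change 3.12, limma adjusted p = 0.00867). It had a listed 0 and 1.22 FPKM in DMSO, 67.7 and 19.4 FPKM at 50 nM 6 h and 16.3 and 8.68 FPKM at 200 nM. By these values it is among the genes that split the KYSE510 libraries the other way.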
